A study of Mus musculus with 4 samples.

Results

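The Iroquois genes *Irx1* to *Irx6* were examined in 4 mouse neural stem cell (NSC) lines, each profiled as 1 single-cell RNA sequencing library. The 6 members were chosen by name, among 28090 genes listed in at least 1 table. All 6 were listed in XN1 and CN4, 5 in XN4 (without *Irx6*), and 2 in KN1 (*Irx3* and *Irx5*). All lines were derived from 129/Sv epiblast stem cells (EpiSCs) and cultured with EGF and FGF2, each at 10 ng/ml. XN4 and XN1 also received 10 µM XAV939, a tankyrase inhibitor that dampens Wnt signaling; the study's text gives supplier B for XN4 and supplier A, whose compound precipitated, for XN1. KN1 received neither Wnt agent, and CN4 received 2 µM CHIR99021, a GSK3 inhibitor that activates Wnt signaling. The comparison asked how the 2 Irx clusters were used in lines made under different Wnt signal inputs. Because each line was 1 library, the line, its culture condition and its library cannot be told apart, no test between lines was possible, and every interval below covers counting error only.

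Iroquois proteins are homeodomain transcription factors of the TALE class, which bind DNA and divide embryonic tissues into domains. In the mouse, the genes lie as a pair of clusters, *Irx1*, *Irx2* and *Irx4* in one and *Irx3*, *Irx5* and *Irx6* in the other. In the developing neural tube, *Irx3* and *Irx5* are known from a broad intermediate and dorsal domain, where Irx3 and the motor neuron and oligodendrocyte factor Olig2 restrict each other. *Irx4* is best known from the ventricle of the heart, and *Irx6* from the retina.

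On GRCm38 (GENCODE M21), the Irx1/2/4 cluster spans 1312 kb of chromosome 13, with *Irx1* at chr13:71957921-71963723 (minus strand), *Irx2* at chr13:72628820-72634198 (plus) and *Irx4* at chr13:73260479-73269608 (plus). The Irx3/5/6 cluster spans 882 kb of chromosome 8, with *Irx3* at chr8:91798525-91802067 (minus), *Irx5* at chr8:92357625-92376286 (plus) and *Irx6* at chr8:92674288-92680956 (plus). The antisense gene *Irx3os* (chr8:91800415-91807539, plus strand) overlaps *Irx3* by 1653 bases, in part within exons of both. Alike stretches of the homeobox are where a short read may fit more than 1 member, so the 60 coding bases that are most alike over all 6 genes are shown, from the annotated transcripts, read 5′ to 3′ on the coding strand. They lie in a single coding exon of each gene and hold the codons for the tryptophan-phenylalanine-any residue-asparagine signature of homeodomains. Capitals mark bases that differ from *Irx3*.
Irx1 (chr13:71960007-71960066, minus strand): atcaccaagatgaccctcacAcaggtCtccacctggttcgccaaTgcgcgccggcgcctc
Irx2 (chr13:72630778-72630837, plus strand): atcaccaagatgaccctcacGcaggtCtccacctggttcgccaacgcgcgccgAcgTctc
Irx4 (chr13:73267637-73267696, plus strand): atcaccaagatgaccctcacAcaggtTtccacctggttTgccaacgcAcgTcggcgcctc
Irx3 (chr8:91800511-91800570, minus strand): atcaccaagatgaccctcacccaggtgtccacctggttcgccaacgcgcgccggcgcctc
Irx5 (chr8:92359741-92359800, plus strand): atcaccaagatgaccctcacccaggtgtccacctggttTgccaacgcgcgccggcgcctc
Irx6 (chr8:92677350-92677409, plus strand): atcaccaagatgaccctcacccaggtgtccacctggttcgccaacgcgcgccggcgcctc

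In this window *Irx6* had the same 60 bases as *Irx3* and *Irx5* differed from *Irx3* at 1 base, whereas *Irx1*, *Irx2* and *Irx4* differed at 3, 4 and 5 bases. Over whole annotated transcripts, the longest run shared without a mismatch was 88 bases for *Irx3* and *Irx6*, 65 for *Irx2* and *Irx5*, and 50 for *Irx3* and *Irx5*. For the other 12 pairs it was 23 to 41 bases. How the counting treated a read that fits more than 1 member is not given in the sources used here, so counts of *Irx3*, *Irx5*, *Irx6* and *Irx2* are uncertain to the extent that reads fell inside such runs. The read length stated by the study exceeds the longest of these runs, so a read aligned in full could not lie inside one. How far reads were trimmed or aligned in part is not given. In XN4, where 9683 reads were assigned to *Irx3*, *Irx6* was not listed at all.

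With all reads, 8741 cells of XN4 (median 12615 reads), 14452 of XN1 (5982) and 18157 of CN4 (9173) were available. KN1 was read from its normalized table, with 3975 cells and a median of 5862 reads but only 833 genes per cell, against 2257 to 2824 genes per cell in the normalized tables of the other lines. The lines shared 37 to 320 cell barcodes per pair of libraries. Of 10 neural progenitor markers, 8, 9 and 10 were captured in over 5% of XN1, KN1 and CN4 cells. XN4 went against its label: only 4 of 10 passed this share, *Sox2* was captured in 0.561% of cells, and *Fabp7* and *Hes5* in none. There, 9 of 10 connective tissue markers were captured in over 5% of cells (*Col3a1* in 97.7%, *Dcn* in 87.5%), and their summed level was 5926 reads per 1000000 reads, against 149 to 166 in XN1 and CN4 and 9.87 in KN1. XN4 is therefore read below as a line with these markers, and their part in its Irx values was not tested.

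*Irx3* and *Irx5* were the leading Irx genes in XN4, *Irx1* led in CN4, and XN1 lay between them. The share of cells with at least 1 *Irx3* read was 37.5% for XN4 (95% interval 36.5% to 38.6%), 22.0% for XN1 (21.3% to 22.7%), 13.5% for CN4 (13.0% to 14.0%) and 1.08% for KN1 (0.784% to 1.45%). That of *Irx5* was 25.8% for XN4 (24.9% to 26.8%), 20.4% for XN1 (19.7% to 21.0%), 19.3% for CN4 (18.7% to 19.9%) and 1.79% for KN1 (1.40% to 2.25%), although with at least 2 reads asked for CN4 (6.91%) stood above XN1 (5.65%). *Irx3* thus ran through a wide range over the 3 lines with all reads, and *Irx5* through a narrow one. *Irx1* had the reverse order, with 22.5% for CN4 (21.9% to 23.1%), 5.72% for XN1 (5.35% to 6.11%) and 0.526% for XN4 (0.386% to 0.701%). *Irx2* followed *Irx1*, with 16.4% for CN4 (15.8% to 16.9%), 11.2% for XN1 (10.7% to 11.7%) and 6.25% for XN4 (5.75% to 6.77%), although with at least 2 reads asked for XN4 (3.10%) stood above XN1 (2.49%).

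**Figure D1:**
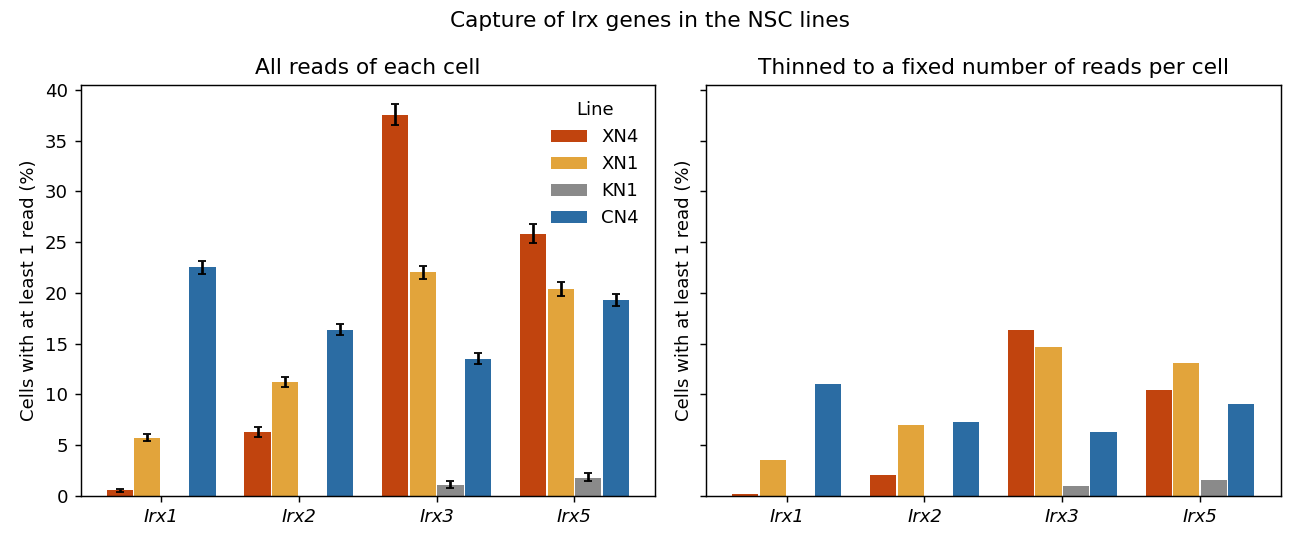
Percent of cells with at least 1 read of 4 Irx genes in each line, with 95% exact binomial intervals over all reads (left) and after thinning each cell to 3600 reads, or 3200 reads for KN1 (right, no intervals). *Irx3* falls from XN4 (37.5%) to CN4 (13.5%) while *Irx1* climbs from 0.526% to 22.5%, and the order for *Irx5* in XN4 and XN1 turns over on the right; *Irx1* and *Irx2* are not listed for KN1.

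The cells of the lines were sequenced to different depths, so the shares were also taken after thinning each cell to 3600 reads. *Irx3* then stood at 16.3% in XN4, 14.7% in XN1 and 6.30% in CN4, in the same order as before. *Irx1* stood at 0.206%, 3.56% and 11.0%, also in the same order. *Irx5* changed its order, with 10.4% in XN4 below 13.1% in XN1, and 9.04% in CN4. *Irx2* stood at 1.99% in XN4, and at 7.01% and 7.27% in XN1 and CN4, which were nearly level. In the normalized tables thinned to 3200 reads, *Irx3* stood at 20.4% for XN4, 16.0% for XN1, 7.75% for CN4 and 0.903% for KN1, and *Irx5* at 13.0%, 14.1%, 10.2% and 1.57% in this order. Thinning left out 154, 1858 and 543 cells of XN4, XN1 and CN4, and 579 of KN1. It sets reads level and not molecules, and the libraries may differ in reads per molecule. Of the cells that captured *Irx5*, 35.7% had a single read in XN4 and 72.2% in XN1. Whether this moved the order of *Irx5* was not tested.

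Within each line, capture climbed with depth. In XN4 the share of cells with *Irx3* went from 11.1% in the tenth of cells with the fewest reads to 74.0% in the tenth with the most, and that with *Irx5* from 5.94% to 62.0%. In CN4, *Irx1* went from 11.2% to 37.5% and *Irx3* from 6.06% to 22.5%. *Irx1* in XN4 stayed between 0.114% and 1.14% at every depth, although the deepest XN4 cells had a median of 39154 reads. Most capturing cells had few reads, with a median of 2 per capturing cell for *Irx3* and *Irx5* in XN4 and 1 in XN1 and CN4, so a cell without a read cannot be taken as lacking the transcript. Each line was a single culture, so no cell type known to lack these genes was at hand in the same library to measure free RNA, and its part was not tested.

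**Figure D2:**
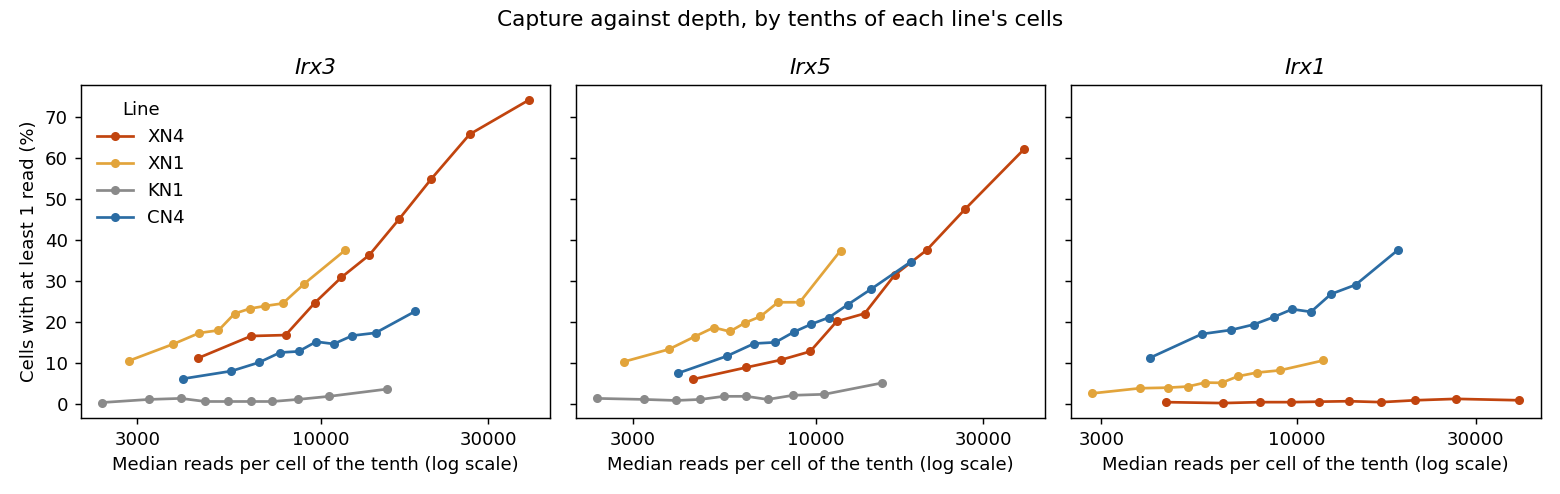
Percent of cells with at least 1 read of *Irx3*, *Irx5* or *Irx1* against the median reads per cell, for 10 groups of cells of equal size ordered by total reads in each line (x axis on a log scale). *Irx3* in XN4 reaches 74.0% in the deepest group, KN1 stays at 5.04% or lower for both listed genes, and *Irx1* in XN4 lies along the bottom at every depth.

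Levels were summed over all cells of a line as reads per 1000000 reads (RPM). The level of *Irx3* fell from 69.0 RPM for XN4 (95% Poisson interval 67.6 to 70.4) through 49.0 RPM for XN1 (47.6 to 50.4) to 20.5 RPM for CN4 (19.8 to 21.1). That of *Irx5* was 45.2 RPM for XN4 (44.1 to 46.3), 43.8 for XN1 (42.5 to 45.2) and 30.7 for CN4 (29.9 to 31.6), and the intervals of XN4 and XN1 overlapped. *Irx1* had 36.4 RPM for CN4 (35.5 to 37.2), 11.5 for XN1 (10.8 to 12.2) and 0.641 for XN4 (0.516 to 0.788). *Irx2* had 23.4 RPM for CN4 (22.7 to 24.1), 22.5 for XN1 (21.5 to 23.5) and 7.90 for XN4 (7.45 to 8.38), and the intervals of XN1 and CN4 overlapped. Here and below, intervals of levels and of shares of reads take each read as independent. The values count reads and were not collapsed to molecules, so copies of 1 molecule can count more than once, and the intervals are too narrow to that extent. For *Irx3* and *Irx1* the intervals of these lines did not overlap, which orders single libraries by counting error only. For *Irx5* and *Irx2* only 1 line stood apart, CN4 and XN4 respectively.

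Set per kb of annotated exon, so that genes can be compared with each other, XN4 had 25.0 RPM per kb of *Irx3*, 14.4 of *Irx5*, 2.41 of *Irx2* and 0.245 of *Irx1*. XN1 kept the same order of genes at closer levels, with 17.7, 14.0, 6.85 and 4.37 RPM per kb. In CN4 the order of genes was another one, with *Irx1* at 13.9, *Irx5* at 9.83, *Irx3* at 7.41 and *Irx2* at 7.13 RPM per kb. Without the division by length, *Irx2* stood above *Irx3* in CN4 (23.4 against 20.5 RPM, and 16.4% against 13.5% of cells). Introns were counted too, which the scale per kb does not account for, and whether reads of this assay grow with exon length was not tested.

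As a fold between libraries, *Irx1* was 56.7-fold lower in XN4 than in CN4 and *Irx2* 2.96-fold lower, whereas *Irx3* was 3.37-fold higher and *Irx5* 1.47-fold higher. Of the 4 Irx genes that had at least 5 RPM in either line, 2 were at least 2-fold lower in XN4 than in CN4, against 17.9% of 11420 genes, and 1 was at least 2-fold higher, against 15.1%. Against XN1, *Irx1* was 17.9-fold lower in XN4 and *Irx2* 2.84-fold lower, where 16.4% of all genes were at least 2-fold lower. Between XN1 and CN4, *Irx1* was 3.18-fold lower in XN1 (7.73% of genes were at least 2-fold lower) and *Irx3* 2.39-fold higher (8.91% at least 2-fold higher). The share of all genes with a larger XN4 over CN4 fold was 9.13% for *Irx3*, 23.2% for *Irx5* and 97.8% for *Irx1*. The median log2 fold of XN4 over CN4 was -0.14 over all genes, and 0.01 when ribosomal protein and mitochondrial reads were left out, and this shift is small beside a log2 fold of 1.75 for *Irx3* and -5.82 for *Irx1*.

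In KN1 both listed members were rare. *Irx3* had 200 reads in 43 cells and *Irx5* 448 reads in 71 cells, with medians of 4 and 6 reads per capturing cell. These are more reads per capturing cell than in any other line, in the library with the fewest genes per cell. Over the reads of the normalized tables, *Irx3* stood at 7.26 RPM for KN1 (6.29 to 8.33), against 95.3 RPM for XN4, 62.3 for XN1 and 29.0 for CN4. *Irx5* stood at 16.3 RPM for KN1 (14.8 to 17.8), against 63.4 RPM for XN4, 54.9 for XN1 and 40.1 for CN4. *Irx3* was thus 13.1-fold higher in XN4 than in KN1 and *Irx5* 3.90-fold higher, where 22.4% of all genes were at least 2-fold higher. XN1 was 8.59-fold and 3.38-fold higher than KN1 (22.9% of genes), and KN1 was 4.00-fold and 2.47-fold lower than CN4 (21.7% of genes). With backgrounds of this size, a 2-fold difference from KN1 was common among all genes.

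*Irx4*, and *Irx6* outside CN4, were at the limit of detection. *Irx4* had a single read in each of 2 XN4, 4 XN1 and 5 CN4 cells, or 0.0229%, 0.0277% and 0.0275% of cells. *Irx6* had 1 read in 1 XN1 cell, and 31 reads in 17 CN4 cells, or 0.0936% of cells (0.0546% to 0.150%), with up to 4 reads in a cell. A count of 0 allows a share of up to 0.0343% in XN4, 0.0208% in XN1 and 0.0165% in CN4, so the *Irx4* shares lay close to what these tables can show, while the *Irx6* share in CN4 lay above it. A list of 5 heart muscle genes was measured and summed to 0.247 to 0.321 RPM in these 3 lines, with none captured in over 5% of cells.

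Summed by cluster, the reads shifted from 1 chromosome to the other over the lines. Of all Irx reads, the share from *Irx1*, *Irx2* and *Irx4* was 6.97% for XN4 (6.60% to 7.36%), 26.8% for XN1 (26.0% to 27.6%) and 53.8% for CN4 (53.1% to 54.5%). At least 1 gene of the Irx1/2/4 cluster was captured in 6.73%, 16.0% and 33.8% of XN4, XN1 and CN4 cells, and at least 1 gene of the Irx3/5/6 cluster in 48.6%, 36.7% and 28.7%. The share with a read of any Irx gene was 50.8% for XN4 (49.7% to 51.8%), 46.0% for XN1 (45.2% to 46.8%) and 50.6% for CN4 (49.8% to 51.3%). After thinning, the Irx1/2/4 cluster stood at 2.20%, 10.3% and 17.2% of cells and the Irx3/5/6 cluster at 24.4%, 25.6% and 14.4%, so that XN4 and XN1 were close for the latter at a like number of reads. The share with any Irx gene was then 26.0% for XN4, 33.1% for XN1 and 28.8% for CN4, which put XN1 from the lowest to the highest place.

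**Figure D3:**
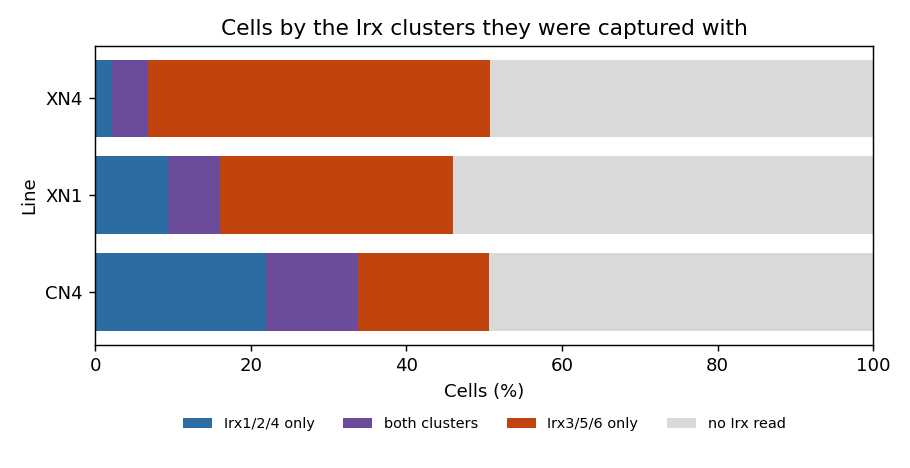
Percent of XN4, XN1 and CN4 cells with reads of the Irx1/2/4 cluster only, of both clusters, of the Irx3/5/6 cluster only, or of no Irx gene. Cells with the Irx3/5/6 cluster only shrink from 44.1% in XN4 to 16.7% in CN4 and cells with the Irx1/2/4 cluster only grow from 2.20% to 21.9%, and cells with no Irx read make up 49.2% to 54.0%, all at the unequal depths of these lines.

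Cells with both clusters made up 11.9% of CN4 (11.5% to 12.4%), but 6.70% of XN1 (6.30% to 7.12%) and 4.53% of XN4 (4.10% to 4.99%). Cells with 3 Irx genes made up 1.90%, 1.51% and 3.44%, and cells with 4 were 1 in XN4, 9 in XN1 and 76 in CN4. No cell had more than 4. The more Irx genes a cell had, the more reads it had: in XN4 the median was 9130 reads for cells with none, 15154 with 1, 23874 with 2 and 32574 with 3. Co-detection was therefore set against the number of cells expected from the shares of both genes within 20 groups of cells of like total reads, and the ratio of observed to expected cells is given with its 95% Poisson interval. A pair counts as above expectation where the lower end exceeds 1, and below it where the upper end is under 1. Ratios describe cells of 1 library, which share that library, and carry no test. The Poisson interval sets no upper bound on the number of cells with both. It is therefore too wide where a gene is captured in most cells, and an interval that held 1 may hide a departure there. The largest possible ratio also falls as capture climbs, so ratios of lines with unlike shares are not on 1 scale.

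The neighbours *Irx3* and *Irx5* were found together above expectation in each line with enough cells. In XN4, 1292 cells had both, where 1165 were expected, a ratio of 1.11 (1.05 to 1.17). In XN1, 821 cells had both, where 722 were expected, a ratio of 1.14 (1.06 to 1.22), which no longer counted among the cells of the normalized table (1.07, 0.926 to 1.24) or with at least 2 reads (1.24, 0.995 to 1.53). In CN4, 761 cells had both, where 539 were expected, a ratio of 1.41 (1.31 to 1.52), whose interval lay above those of XN4 and XN1. In other words, 31.0% of CN4 cells with *Irx3* also had *Irx5*, against 20.3% of cells without *Irx3* at like depth. In XN4 the same shares were 39.4% and 30.6%, and in XN1 25.8% and 21.5%. In KN1, 4 cells had both, where 1.25 were expected, too few for a ratio.

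*Irx1* and *Irx2*, the neighbours on chromosome 13, were also found together above expectation. In CN4, 915 cells had both, where 747 were expected, a ratio of 1.22 (1.15 to 1.31). In XN1, 132 cells had both, where 105 were expected, a ratio of 1.25 (1.05 to 1.49), which no longer counted with at least 2 reads (1.82, 0.875 to 3.35). In XN4, where *Irx1* was nearly absent, 6 cells had both and 3.94 were expected. Pairs with *Irx4* or *Irx6* had at most 5 cells together in any line and get no ratio.

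Between clusters, XN4 and XN1 differed little from expectation and CN4 lay above it. For any gene of one cluster with any gene of the other, the ratio was 1.12 for CN4 (1.07 to 1.17), 1.04 for XN1 (0.973 to 1.10) and 1.01 for XN4 (0.914 to 1.12). The interval of CN4 overlapped those of XN1 and XN4, so a difference between the lines is not shown. In XN4 the 4 pairs of *Irx1* or *Irx2* with *Irx3* or *Irx5* ran from 0.640 (*Irx1* and *Irx5*, 10 cells, 0.307 to 1.18) to 1.03 (*Irx2* and *Irx3*, 307 cells, 0.921 to 1.16), and none counted as above expectation. In XN1, *Irx2* and *Irx3* had 1.11 (1.01 to 1.22; 440 cells), and the other 3 pairs had 0.999 to 1.02. With at least 2 reads, *Irx1* and *Irx5* in XN1 had 1.85 (1.19 to 2.76), and *Irx2* and *Irx3* no longer counted, nor did they without the deepest cells (1.10, 0.986 to 1.21) or among the cells of the normalized table (1.12, 0.919 to 1.34). In CN4 all 4 pairs counted as above expectation, and 2 to 3 of them did in 3 other settings, with at least 2 reads, among the cells of the normalized table, and without shared barcodes. They were *Irx1* and *Irx3* at 1.20 (1.11 to 1.29), *Irx2* and *Irx5* at 1.17 (1.09 to 1.26), *Irx1* and *Irx5* at 1.13 (1.06 to 1.20), and *Irx2* and *Irx3* at 1.10 (1.01 to 1.21). The interval of *Irx3* and *Irx5* in CN4 lay above all 4 of these, whereas that of *Irx1* and *Irx2* overlapped each of them.

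**Figure D4:**
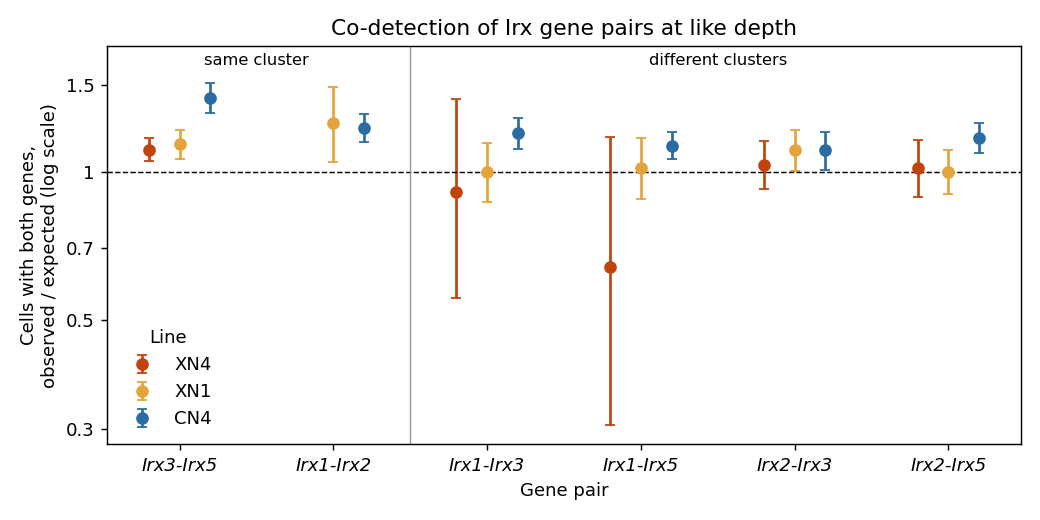
Observed over expected number of cells with both genes of a pair (log scale) with 95% Poisson intervals, for pairs within a cluster (left) and between clusters (right) in XN4, XN1 and CN4. The 5 ratios on the left all lie above the dashed line at 1, with *Irx3* and *Irx5* in CN4 at 1.41, and on the right the 4 CN4 ratios (1.10 to 1.20) lie above it while those of XN4 and XN1 lie around it.

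These calls can be read against all other genes, scanned in the same way. Here and below, that background holds genes with as few as 20 expected cells. Such genes are called less readily than well captured ones, and the background was not matched for capture. In CN4, 6.16% of 12915 genes counted as above expectation with *Irx3*, 4.99% of 13513 with *Irx5*, 6.75% with *Irx1* and 3.16% with *Irx2*. *Irx3* ranked 7 of 13513 genes by its ratio with *Irx5*, and *Irx5* ranked 48 of 12915 by its ratio with *Irx3*. *Irx2* ranked 314 of 13731 with *Irx1*, and *Irx1* 178 of 13246 with *Irx2*. Genes of the other cluster stood nearly as high in places, with *Irx2* at 373 of 13513 for *Irx5*, *Irx5* at 381 of 13246 for *Irx2* and *Irx3* at 445 of 13731 for *Irx1*. In XN1 the shares were 1.95% for *Irx3*, 1.43% for *Irx5*, 1.78% for *Irx1* and 1.11% for *Irx2*. There *Irx3* ranked 500 of 12629 genes with *Irx5*, and *Irx1* ranked 110 of 11836 with *Irx2*. In XN4 they were 1.15% for *Irx3*, 2.79% for *Irx5* and 1.83% for *Irx2* (166 and 383 genes for *Irx3* and *Irx5*, or 49 and 85 when cells were grouped by genes detected), and *Irx5* ranked 475 of 14423 genes with *Irx3*. With *Irx5*, 0.0444% of genes thus had a larger ratio than the cluster partner *Irx3* in CN4, 3.95% in XN1 and 5.18% in XN4. With *Irx3*, 0.364% had a larger ratio than *Irx5* in CN4, 3.99% in XN1 and 3.29% in XN4. As the largest possible ratio differs between lines, these shares do not measure a difference between them.

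Among genes captured in at least 5% of cells, the 5 with the largest ratios were taken for *Irx3* and *Irx5* in each line. In CN4, *Irx3* itself led the 9976 genes for *Irx5*, followed by *Hyls1*, a centriole gene, at 1.29 (1.18 to 1.40), cyclin F (*Ccnf*) at 1.25, the linker histone *Hist1h1e* at 1.24 and the spindle gene *Nusap1* at 1.23 (1.18 to 1.29). For *Irx3* they were the manganese exporter *Slc30a10* at 1.51 (1.33 to 1.70), the peptide transporter *Tap1* at 1.48, the cholesterol efflux pump *Abca1* at 1.48 (1.35 to 1.62), *Shisa9* at 1.42 and the adrenergic receptor *Adra2a* at 1.42. The lists of *Irx3* and *Irx5* in CN4 had no gene in common, as is usual at random for lists of 5 among 9976 genes. The overlap of all genes above expectation was not counted. *Irx5*, at 1.41, was not among the 5 leading genes of *Irx3*. Chosen after the values were seen, *Slc30a10*, *Shisa9* and *Abca1* were also among the 5 leading genes of *Irx1* in CN4, at 1.33, 1.40 and 1.31. *Shisa9* and *Abca1* were among those of *Irx2* in CN4 as well, at 1.43 and 1.27.

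In XN4, *Irx3* had *Fam184a* (1.20), *Slc30a10* (1.20), *Skida1* (1.18), *Fam174b* (1.17) and the vitamin D receptor gene *Vdr* (1.16). *Irx5* had *Slc30a10* (1.28), *Fam174b* (1.23), the growth factor gene *Fgf10* (1.21), *Cyfip2* (1.21) and angiotensinogen (*Agt*, 1.21). *Slc30a10* and *Fam174b* stood in both lists. In XN1, *Irx3* had *Klhdc7a* (1.26), *Rgs3* (1.22), transglutaminase *Tgm2* (1.21), the adrenergic receptor *Adra1b* (1.20) and *Trib3* (1.20), and *Irx5* had the DNA polymerase *Polk* (1.22), *Pidd1* (1.21), *Syt13* (1.20), the quinone reductase *Nqo1* (1.19) and *Tmem159* (1.19). The XN1 lists shared no gene with each other or with those of the other lines. Lists of 5 among 9190 or more genes seldom share a gene at random, so this tells nothing of different partners. These were the largest of all ratios by choice, so their size is a description.

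Factors that pattern the neural tube from dorsal to ventral were described with a list of 15 genes. In CN4, cells with *Irx3* were above expectation for *Pax3* and *Pax6* and below it for 3 genes known from ventral domains. The paper describes the dorsoventral identities of these lines as ambiguous, and does not take *Nkx2-2* in them as a sign of ventral specification. *Pax3*, a dorsal gene, was found with *Irx3* in 538 cells where 456 were expected (1.18, 1.08 to 1.28), and *Pax6*, which spans intermediate domains, in 733 against 640 (1.14, 1.06 to 1.23). *Foxa2*, a floor plate gene, was found in 115 cells where 163 were expected (0.704, 0.581 to 0.845), *Nkx2-2* in 303 against 346 (0.877, 0.781 to 0.981) and *Olig2* in 2064 against 2161 (0.955, 0.914 to 0.997). Of the 6 genes with enough cells, 2 were thus above and 3 below, with a median ratio of 0.994, against 6.16% above and 5.38% below over all genes and a median of 1.00. As this background was not matched for capture, well captured genes of a list can be called more often for that alone. The upper ends for *Nkx2-2* and *Olig2* lay close to 1, although the interval is too wide for *Olig2*, which was captured in most cells. Calls for these listed genes were not recomputed under other settings.

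*Irx5* in CN4 gave like values, with *Pax3* at 1.12, *Pax6* at 1.12, *Nkx2-2* at 0.909 (0.827 to 0.997) and *Foxa2* at 0.736 (0.631 to 0.852). *Olig2* was at 0.978, and its interval (0.943 to 1.01) held 1, but this interval is too wide for a gene captured in most cells. Of 7 genes, 2 were above and 2 below, against 4.99% and 3.34% of all genes. As *Irx3* and *Irx5* share cells, the 2 sets of values are not independent of each other. *Irx1* had *Pax3* (1.14) and *Pax6* (1.12) above and *Nkx2-2* (0.844) and *Olig2* (0.946) below, among 7 genes, where 6.75% of all genes were above and 4.46% below. *Irx2* had *Pax6* (1.09) above and none below, among 6 genes, where 3.16% were above and 1.67% below. *Foxa2* stood at 1.01 with *Irx1*, with the interval holding 1.

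**Figure D5:**
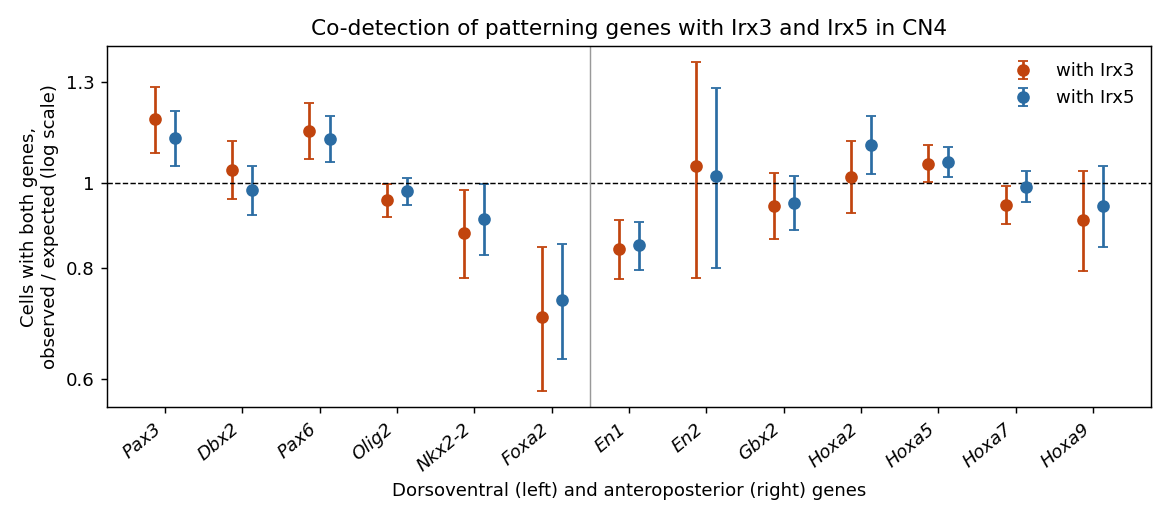
Observed over expected number of CN4 cells (log scale, 95% Poisson intervals) with *Irx3* or *Irx5* and a dorsoventral gene (left of the grey line) or an anteroposterior gene (right). *Pax3* and *Pax6* lie above the dashed line at 1 for both, *Nkx2-2*, *Foxa2* (0.704 and 0.736) and *En1* below it for both; *Msx1*, with at most 26 cells together with either gene, is left out of the plot.

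In XN1, 4 dorsoventral genes had enough cells, and none counted as above or below expectation with *Irx3* or *Irx5*. There 1.95% of all genes were above and 2.45% below with *Irx3*, and 1.43% and 0.602% with *Irx5*. *Pax6* (captured in 16.7% of XN1 cells), *Nkx2-2* (12.5%) and *Olig2* (86.8%) were among them. In XN4 none of the 15 genes was captured in over 5% of cells, although *Irx3* was captured in 37.5% of cells.

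Along the anteroposterior axis, 7 of 9 listed genes had enough cells in CN4. With *Irx3*, 1 was above and 2 were below expectation, against 6.16% and 5.38% of all genes, and with *Irx5*, 2 were above and 1 was below, against 4.99% and 3.34%. *En1*, a midbrain and hindbrain boundary gene, was below expectation with *Irx3* (676 cells, 0.841, 0.779 to 0.907) and with *Irx5* (993 cells, 0.849, 0.797 to 0.903). *Hoxa5*, of the hindbrain and spinal cord, was slightly above, at 1.05 with *Irx3* and 1.06 with *Irx5*. *Hoxa7* was below with *Irx3* only, at 0.944 (0.898 to 0.992), and *Hoxa2* above with *Irx5* only, at 1.10 (1.02 to 1.19); whether these differ between *Irx3* and *Irx5* was not tested. *En1* also stood below expectation in XN4, in 26 cells with *Irx3* (0.681, 0.445 to 0.997) and 10 cells with *Irx5* (0.365, 0.175 to 0.671), where 0.291% and 0.554% of all genes did so. In XN1, *Otx1*, a forebrain and midbrain gene, was above with *Irx3* (1.09, 1.01 to 1.19), as 1 of 8 genes with enough cells, where 1.95% of all genes were above, and no gene of this list counted with *Irx5*, where 1.43% were.

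Of the neural progenitor markers in CN4, *Hes5*, a Notch target, stood at 1.31 with *Irx3* (1.22 to 1.40), 1.17 with *Irx5* and 1.20 with *Irx1*, and *Sox1* at 1.11, 1.09 and 1.15. Of 10 markers, 3 were above and none below with *Irx3*, and likewise with *Irx5*, where 6.16% and 4.99% of all genes were above and 5.38% and 3.34% below. With *Irx1*, 4 were above and 1 below, where 6.75% of all genes were above and 4.46% below. With *Irx2*, 2 were above and 1 below, where 3.16% were above and 1.67% below. In XN1, 1 of 9 markers was above and 1 below with *Irx3*, where 1.95% and 2.45% of all genes were. None counted there with *Irx5*, where 1.43% were above and 0.602% below. Of 5 astrocyte markers in CN4, *Gfap* (1.32), *Aldh1l1* (1.20) and *S100b* (1.14) were above expectation with *Irx3*, against 6.16% of all genes. With *Irx1* 3 of the 5 were above and with *Irx2* 2, against 6.75% and 3.16% of all genes. None was above with *Irx5*, and whether *Irx3* and *Irx5* differ in this was not tested. Of the oligodendrocyte precursor markers in CN4, which include *Olig2*, 3 of 5 were below expectation with *Irx1* and 1 of 4 with *Irx3*. Over all genes, 4.46% and 5.38% were below. Among 5 of these markers, none was below with *Irx2* or *Irx5*, where 1.67% and 3.34% of all genes were. In XN4, 1 of 9 connective tissue markers counted with *Irx3* and with *Irx5*, the growth factor receptor gene *Pdgfra*, at 1.06 (1.02 to 1.11) and 1.07 (1.02 to 1.13), where 1.15% and 2.79% of all genes were above. *Col3a1*, captured in 97.7% of cells, could not have counted as above, since its ratio cannot rise far over 1. *Dcn* and *Prrx1*, also captured in most cells, had little room to count.

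*Hmgb2*, *Mki67* and *Top2a* mark dividing cells, and cells with reads of at least 2 of them made up 28.2% of XN4, 28.0% of XN1, 26.8% of KN1 and 65.5% of CN4. In plain shares *Irx3* was captured in 50.9% of dividing and 32.3% of other XN4 cells, but dividing cells had a median of 20372 reads against 10445. At like depth the ratio of *Irx3* in dividing XN4 cells was 0.990 (0.936 to 1.05) and that of *Irx5* 1.00 (0.940 to 1.07). In XN1, *Irx3* stood below expectation in dividing cells, at 0.894 (0.836 to 0.954), and *Irx5* slightly above, at 1.07 (1.00 to 1.14), with intervals that did not overlap. *Irx5* no longer counted there when all 3 genes were asked for (1.08, 0.999 to 1.16) or with groups of like number of genes (1.03, 0.970 to 1.10). In CN4, *Irx3* stood at 1.02 (0.973 to 1.07) and *Irx5* at 1.08 (1.04 to 1.12), and with all 3 genes asked for *Irx3* also counted as above expectation (1.06, 1.01 to 1.12). In KN1 they stood at 1.19 (0.737 to 1.82) and 1.20 (0.825 to 1.68). *Irx1* and *Irx2* had 1.02 and 0.996 in CN4, with intervals that held 1. As most CN4 cells were called dividing, the CN4 intervals here are too wide.

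Genes that flank the clusters were summed by side. The neighbours on chromosome 8 (9 or 10 of a list of 11 were in the tables) summed to 1275 RPM in XN4, 312 in XN1 and 197 in CN4, in the order of *Irx3*, of which *Mmp2* alone gave 941, 126 and 27.2 RPM. The 10 on chromosome 13 summed to 232, 324 and 390 RPM, in the order of *Irx1* but over a narrower range. In the normalized tables KN1 did not keep the order of *Irx3*, with 542 RPM on the side of chromosome 8 against 262 for CN4. On the side of chromosome 13, 7 or 8 of the 10 listed neighbours were captured in over 5% of cells in XN4, XN1 and CN4, although *Irx1* differed 56.7-fold. *Ndufs6*, of the respiratory chain, was captured in 28.2%, 29.8% and 36.4% of these cells. On the side of chromosome 8, *Fto*, a neighbour of *Irx3*, was captured in 51.5% of XN4, 40.4% of CN4, 33.0% of XN1 and 23.0% of KN1 cells. Shares in this paragraph are not thinned and stand at the unequal depths of these lines, with KN1 from its normalized table. *Lpcat2* stood at 26.2% in XN4 and 0.111% to 0.478% in the other lines, and the matrix protease gene *Mmp2* at 89.8% in XN4, against 39.6% in XN1, 13.6% in CN4 and 2.92% in KN1. *Irx3os* followed *Irx3* in order, with 3.04% of XN4, 0.844% of XN1 and 0.435% of CN4 cells. Whether the counting used strand is not given in the sources used here, so reads of *Irx3os* and *Irx3* in their overlap cannot be told apart. The co-detection ratio of the 2 genes was 1.02 in XN4 (0.849 to 1.20) and 0.919 in XN1 (0.611 to 1.33). *Crnde*, which lies next to *Irx5*, was not analysed here.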

How the data were processed

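Each of the 4 NSC lines was profiled as 1 BD Rhapsody whole-transcriptome library. The authors deposited, for 3 lines (not KN1), counts of reads per gene and cell. Per the file headers, they were made with the BD Rhapsody pipeline 1.12.1 on GRCm38 with GENCODE M19, introns included. These counts are of reads, not collapsed to molecules. For all 4 lines they deposited normalized values, the natural log of 1 plus 10000 times a gene's share of the cell's reads, without ribosomal protein and mitochondrial genes (Seurat 4.3.0 per the labels). These were turned back into reads, whole within 0.01 for 100% of values. Depth was 93096507 to 180825519 reads per count table.

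Capture meant at least 1 read, with exact binomial 95% intervals. Levels were summed reads per 1000000 (RPM) with exact Poisson intervals, and folds used genes with at least 5 RPM in either line. Co-detection ratios needed 5 expected cells for a pair and 20 in the scan over all genes. No doublet caller was run; a run without the deepest 5% of cells was tried instead. Leading genes were the 5 largest ratios for *Irx3* and *Irx5* among genes captured in at least 5% of cells. Functions were tested on simulated data; Python 3.11.15, NumPy 2.4.6, SciPy 1.17.1 and pandas 2.3.3 were used. The members, gene lists and marker lists were chosen with earlier results of these data known. Some genes of these lists are not reported here.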

Additional observations from a re-analysis of the deposited data

How the results depend on the processing

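No paired analysis was possible because each line was a single library. Of 304 values recomputed under another setting, 210 stayed within the counting interval of the reported value (for counts, within 1.5 times), 93 moved and 1 turned over. Ratios with single patterning, marker and neighbour genes were not among them. Asking for at least 2 reads gave *Irx3* shares of 24.6%, 6.76% and 4.32% in XN4, XN1 and CN4 and *Irx5* shares of 16.6%, 5.65% and 6.91%, so that CN4 then stood above XN1 for *Irx5*, as XN4 did for *Irx2* (3.10% against 2.49%). Thinning gave *Irx3* 16.3%, 14.7% and 6.30% and *Irx5* 10.4%, 13.1% and 9.04%. Without the deepest 5% of cells, *Irx3* had 35.2%, 21.0% and 12.8% and *Irx5* 23.7%, 19.3% and 18.2%. The cells of the normalized tables alone gave *Irx3* 36.4% in XN4, and *Irx5* 24.8%, 19.5% and 17.4%, with *Irx3* levels of 66.7 RPM in XN4 and 22.6 in CN4. Without ribosomal protein and mitochondrial reads, *Irx3* stood at 97.3, 61.8 and 26.1 RPM and *Irx5* at 63.7, 55.3 and 39.2. The mean over cells of their share of reads was 61.2 RPM for *Irx3* and 39.1 for *Irx5* in XN4, which put XN4 below XN1 for *Irx5*. The order over lines was otherwise kept for *Irx3* and *Irx1* in every setting tried.

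Without groups of like depth, *Irx3* and *Irx5* had ratios of 1.52, 1.27 and 1.61 in XN4, XN1 and CN4, *Irx1* and *Irx2* 1.37 in CN4, and the clusters 1.39, 1.14 and 1.23. With at least 2 reads, *Irx3* and *Irx5* had 1.17, 1.24 and 1.82, *Irx1* and *Irx2* 1.82 in XN1 and 1.48 in CN4, and *Irx2* and *Irx3* in XN1 turned to 0.907; neither XN1 pair within a cluster then had an interval above 1. Among cells that the normalized table also holds, the clusters had 1.21 in CN4, where 2 of the 4 pairs between clusters had an interval above 1, as 2 did with at least 2 reads (*Irx1* and *Irx5* 1.07, *Irx2* and *Irx3* 1.17, both with intervals that held 1). Groups of like number of genes, in place of reads, left 49 genes above expectation with *Irx3* and 85 with *Irx5* in XN4, against 166 and 383. Calling cells dividing by all 3 genes gave *Irx5* 1.15 and *Irx3* 1.06 (1.01 to 1.12) in CN4. Chosen after seeing the data, thinning gave shares with any Irx gene of 26.0%, 33.1% and 28.8%, and groups of like depth made separately in dividing and other cells, and leaving out cells with shared barcodes, moved none of the co-detection ratios out of their intervals, but *Irx2* and *Irx3* in CN4 then had an interval that held 1 without shared barcodes (1.09, 0.999 to 1.20). For pairs with at least 20 expected cells in the reported setting (some had fewer with at least 2 reads), pairs within a cluster had ratios of 1.07 to 1.82 and pairs between clusters 0.794 to 1.85, the highest for *Irx1* and *Irx5* in XN1 with at least 2 reads (1.19 to 2.76).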
